A study of Mus musculus with 4 samples.

Results

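The genes described here act around the switch by which a spermatogonium leaves the self-renewing state and commits to differentiation. They are Kit, Stra8, Sohlh1, Sohlh2, Dmrt1, Dmrtb1, Neurog3, Uchl1, Sox3 and Taf4b, chosen by name. All 10 were found by their symbol, each as a single row among the 32285 genes of the count table. Levels were read in GS cells, cultured spermatogonia derived from the testes of wild-type mice aged 10 days. The C57BL/6 strain (B6) and strain 129 each gave 2 libraries, and the labels give strain as the difference between the groups. The titles of both B6 libraries also carry the tag F0, which those of 129 lack and which no label explains, so it cannot be told apart from strain. The labels tie no library to a mouse or a culture of its own, so each p-value reflects the spread of these 4 samples only, and that spread may be technical.

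In the mouse testis the undifferentiated pool includes GFRA1-positive stem cells and progenitors that express Neurog3 and Sox3. Retinoic acid drives the progenitors into differentiation, when Kit and Stra8 come on, and the bHLH factors SOHLH1 and SOHLH2 act in the same step, with Kit among their targets. DMRT1 holds mitotic germ cells back from meiosis by limiting Stra8, and DMRTB1 (also called DMRT6) acts later, in the passage from mitosis to meiosis. UCHL1, also known as PGP9.5, marks undifferentiated spermatogonia, and TAF4B supports long-term upkeep of the germline.

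Letters from RefSeq's promoter table are shown for the SOHLH pair, whose family binds the E-box CANNTG, and for Stra8, whose family of inducers, the retinoic acid receptors, binds half-sites of the form AGGTCA. The table (GRCm38.p6) held 7 of the 10 genes, and both strands were searched over the 250 bases before each RefSeq start. GENCODE starts differ for some of them: all 250 bases of the Stra8 window and of the first of 2 Dmrtb1 windows lie within GENCODE exons, so the Stra8 pieces are transcribed sequence in that annotation. Exons also covered 71 and 75 bases of the 2 Kit windows, 30 of the Uchl1 window and 16 of the Sohlh2 window, and the Sohlh2 letters shown stop before them. CANNTG reads as itself on the opposite strand, and CACGTG is one form of it. Capitals mark the motif, and each sequence runs 5′ to 3′ on the gene's strand.
Sohlh1, chr2:25847249-25847498, minus strand, CANNTG in capitals: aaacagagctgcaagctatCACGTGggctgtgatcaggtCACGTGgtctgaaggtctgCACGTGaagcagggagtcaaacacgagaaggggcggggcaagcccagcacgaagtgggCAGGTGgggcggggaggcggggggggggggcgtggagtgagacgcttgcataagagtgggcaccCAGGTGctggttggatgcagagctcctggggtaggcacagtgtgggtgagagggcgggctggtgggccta
Sohlh2, chr3:55181794-55182027, plus strand, CANNTG in capitals: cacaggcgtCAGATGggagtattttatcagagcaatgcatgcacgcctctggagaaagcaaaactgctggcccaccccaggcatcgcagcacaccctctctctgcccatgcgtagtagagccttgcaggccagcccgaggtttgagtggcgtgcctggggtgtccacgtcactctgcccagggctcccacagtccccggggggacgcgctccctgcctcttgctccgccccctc
Stra8, chr6:34920744-34920769, plus strand, AGGTCA in capitals: tggggtgaaaAGGTCAtcttgctcct
Stra8, chr6:34920900-34920925, plus strand, AGGTCA in capitals: ctggggtaccAGGTCAgttttttacc

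The Sohlh1 window held 5 matches to CANNTG, 3 of them CACGTG, beginning 231, 211 and 192 bases before the start. At least 1 CACGTG stood in 6.02% of the 32851 windows in the table and at least 3 in 0.0609%, while at least 1 CANNTG stood in 66.2%. Sohlh2 had 1 CANNTG match and Kit none. The windows of Dmrtb1 held 3 and 2, that of Neurog3 1 and that of Uchl1 none. Stra8 held 2 AGGTCA matches, and 1.36% of the windows held at least as many. An AGGTCA in the Sohlh1 window overlaps its middle CACGTG. A match is a run of letters in the reference and no measurement of binding.

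The libraries held 20375086 to 25374801 counts, so 1 count was worth 0.0401 to 0.0495 CPM (the count relative to the TMM-scaled library size). Germ cell identity was clear in all of them: 12 germ cell markers, Ddx4 and Dazl among them, summed to 5058 and 4807 CPM in B6 and to 2612 and 3444 CPM in 129. All 12 had both B6 libraries above both 129 libraries, and 2 of them, Fkbp6 and Rnf17, were called lower in 129. Fibroblast markers (10 genes) were abundant, at 5538 and 3623 CPM in B6 and 6451 and 2565 CPM in 129. Of these Fn1 alone was at 1773 and 1272 CPM in B6 and 4064 and 1665 CPM in 129. The list was split: 6 genes had both B6 libraries above both 129 libraries, and 3 had the reverse. Its median log2 fold change (129 over B6) was -0.96, and 1 gene, Pdgfra, was called, higher in 129. Sertoli markers (12 genes, 5 of them under 1 CPM throughout) summed to 172 and 215 CPM in B6 and 467 and 343 CPM in 129. Some other sources of KIT or UCHL1 had low marker sums. The 6 mast cell markers summed to at most 0.338 CPM, with 3 at 0. For 8 Leydig cell markers the sum was at most 9.35 CPM, with Star alone reaching 1 CPM. The 6 neuronal markers summed to 15.8 to 18.4 CPM. The part of these and of the other non-germ cells in the Kit and Uchl1 values was not tested. Endothelial markers (6 genes) summed to 19.9 and 18.6 CPM in B6 and 108 and 53.9 CPM in 129. Among them Cdh5 was called higher in 129 (0.722 and 2.62 CPM in B6, 87.8 and 27.0 CPM in 129). Of the 5 endothelial markers tested, 2 had both 129 libraries above both B6 libraries, and 3 overlapped between the strains. Peritubular muscle markers (5 genes) summed to 80.4 and 23.4 CPM in B6 and 92.1 and 39.8 CPM in 129. Among those Des was called higher in 129 (2.73 and 2.87 CPM in B6, 28.9 and 21.3 CPM in 129). Tagln ran the other way (28.8 and 6.23 CPM in B6, 3.62 and 2.27 CPM in 129), and DESeq2 called it lower. The other 3 overlapped between the strains. Macrophage markers (6 genes) summed to 18.3 to 49.7 CPM. In bulk RNA, fewer cells of a type and less RNA per cell cannot be told apart.

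Sohlh1 and Uchl1 were lower in 129 than in B6, and the other 8 genes did not pass the test. All 10 genes had enough counts to be tested with edgeR's quasi-likelihood test, adjusted over 16005 genes, where 1.02% of genes were called lower in 129 and 1.84% higher. The 10 genes split by how their libraries fell. Sohlh1, Sohlh2, Dmrt1, Uchl1 and Sox3, 5 of 10, had both B6 libraries above both 129 libraries, an arrangement that 29.2% of tested genes had. Dmrtb1 and Neurog3, 2 of 10, had both 129 libraries above both B6 libraries, as had 31.0% of tested genes. Kit, Stra8 and Taf4b overlapped between the strains. The median log2 fold change (129 over B6) was -0.79 over the 10 genes and 0.015 over all genes tested. DESeq2, which called 5.14% of its genes lower and 9.17% higher, called Sohlh1, Uchl1 and Sox3 lower and Dmrtb1 and Neurog3 higher.

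**Figure D1:**
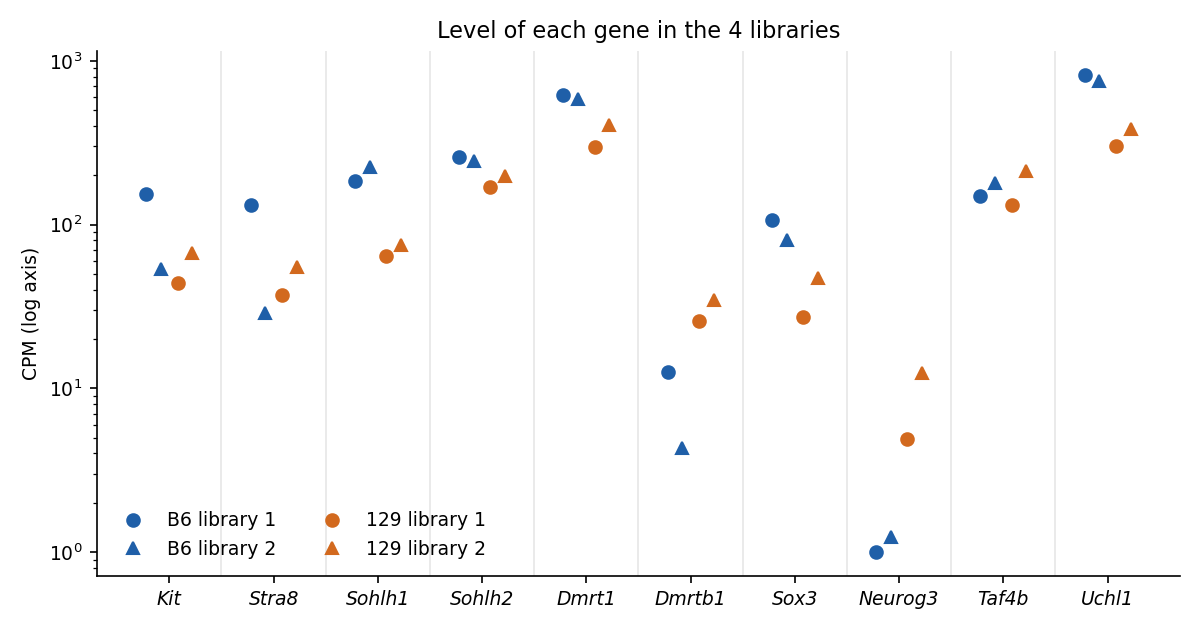
CPM (log axis) of the 10 genes in each library, with B6 in blue and 129 in orange, circles for library 1 and triangles for library 2. The strains are apart for Sohlh1, Sohlh2, Dmrt1, Dmrtb1, Sox3, Neurog3 and Uchl1, while for Kit and Stra8 B6 library 1 stands above the other 3 libraries.

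Sohlh1 encodes a germ cell bHLH transcription factor that pushes spermatogonia toward differentiation. The gene lies on chromosome 2 (25842995-25847248, minus strand, GRCm38). It was at 186 and 225 CPM in the B6 libraries and at 64.7 and 75.6 CPM in the 129 libraries. The higher 129 library thus stood well below the lower B6 library. Means were 206 ± 28.04 CPM in B6 and 70.1 ± 7.66 CPM in 129 (SD, n = 2 each), and the gene fell 2.93-fold (log2 fold change -1.55, SE 0.20, edgeR adjusted p = 0.030). The size varied little when a library was left out, from -1.69 to -1.44. With 129 replicate 2 left out the call held (edgeR adjusted p = 0.035). It was lost with B6 replicate 1, B6 replicate 2 or 129 replicate 1 left out (edgeR adjusted p = 0.15, 0.096 and 0.16), fits in which 0, 1 and 13 genes of the whole table passed and 3252, 4093 and 2203 had an unadjusted p under 0.05.

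Sohlh2, the partner factor (chromosome 3, 55182028-55209957, plus strand), was less far apart between the strains. Its B6 libraries were at 257 and 244 CPM and its 129 libraries at 168 and 199 CPM. The groups did not overlap, but the log2 fold change of -0.45 (SE 0.18, edgeR adjusted p = 0.17) did not pass. The ratio of Sohlh1 to Sohlh2, in CPM, was 0.722 and 0.925 in B6 and 0.384 and 0.379 in 129. The proportion of the pair was therefore nearly equal in the 129 libraries and lower than in either B6 library, a description without a test of its own.

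Uchl1, the ubiquitin hydrolase of undifferentiated spermatogonia (chromosome 5, 66676091-66687234, plus strand), had the highest level of the 10 per kilobase in both strains. B6 libraries held 824 and 755 CPM and 129 libraries 303 and 384 CPM. No 129 library came near the B6 range. Its means were 789 ± 48.8 and 343 ± 57.9 CPM (SD, n = 2 each), so that it fell 2.30-fold in strain 129 (edgeR log2 fold change -1.20, SE 0.19, adjusted p = 0.036). The same 3 omissions ended this call (edgeR adjusted p = 0.18, 0.11 and 0.17), which held with 129 replicate 2 left out (0.030), and log2 fold changes ran from -1.38 to -1.03 over the 4 cases. An antisense gene, Uchl1os, shares 295 exonic bases with Uchl1 on the opposite strand and had 63 counts over the 4 libraries against 50175 for Uchl1. Among its relatives, Uchl3 (51.1 to 58.6 CPM in 129, 40.0 to 54.9 CPM in B6), Uchl5 and Bap1 did not pass.

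Sox3, an X-linked SoxB1 factor of progenitor spermatogonia (chromosome X, 60891366-60893430, minus strand), was at 107 and 80.7 CPM in B6 and at 27.3 and 47.2 CPM in 129. The strains did not overlap, and the 129 libraries differed from each other 1.73-fold. The log2 fold change was -1.33 (SE 0.31, edgeR adjusted p = 0.062), larger in size than that of Uchl1 but with a wider error. DESeq2 called it (adjusted p = 0.0058), and so did edgeR without 129 replicate 2 (-1.78, adjusted p = 0.048). Its paralog Sox2 stayed at 0.59 to 1.61 CPM.

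Dmrt1, a DM-domain factor of spermatogonia and Sertoli cells (chromosome 19, 25505618-25604329, plus strand), had 619 and 584 CPM in B6 and 299 and 407 CPM in 129. The groups were apart, with a log2 fold change of -0.77 (SE 0.20) that did not pass (edgeR adjusted p = 0.074). Sertoli cells are the other source of Dmrt1, and their 12 markers summed to 172 and 215 CPM in B6 and 467 and 343 CPM in 129. Of the 10 that were tested 2 were called, both higher in 129: Clu (3.77 and 10.1 CPM in B6, 193 and 90.4 CPM in 129) and Rhox5 (0.241 and 0.791 CPM in B6, 64.4 and 19.4 CPM in 129). Trf was at 141 to 192 CPM and Wt1 at 5.84 to 26.1 CPM over the libraries, while Sox9, Amh and Gata4 stayed under 10 CPM. The part of Sertoli cells in the Dmrt1 values was not tested.

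Dmrtb1, the other DM-domain gene (chromosome 4, 107676290-107684230, minus strand), ran the other way at a far lower level. It stood at 12.6 and 4.30 CPM in B6 and at 25.7 and 34.4 CPM in 129. Both 129 libraries exceeded both B6 libraries, and the B6 libraries differed 2.93-fold from each other. Its log2 fold change was 1.81 (SE 0.51, edgeR adjusted p = 0.086), and 1.21 without B6 replicate 2 or 2.79 without B6 replicate 1. DESeq2 called it (adjusted p = 0.0075). Relative to Dmrt1, Dmrtb1 was at 0.0204 and 0.00737 in B6 and at 0.0860 and 0.0845 in 129, in CPM.

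Neurog3, a bHLH factor of progenitors on the way to differentiation (chromosome 10, 62133090-62134763, plus strand), had the fewest counts of the 10. It had 25 counts in each B6 library and 101 and 260 counts in the 129 libraries, or 1.003, 1.24, 4.87 and 12.3 CPM. Both 129 libraries lay above B6, and they differed 2.53-fold. The log2 fold change of 2.95 (SE 0.65, edgeR adjusted p = 0.056) was the largest in size of the 10. It did not pass in edgeR and passed in DESeq2 (adjusted p = 9.6e-05). Fam241b shares 273 exonic bases with Neurog3 on the opposite strand. Since no source used here gives the strand option of the counter, reads from the shared bases cannot be assigned to either gene. Fam241b stood at 26.9 and 27.1 CPM in B6 and 23.0 and 35.5 CPM in 129 (log2 fold change 0.12, SE 0.31). The part of the overlap in the Neurog3 values was not tested.

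**Figure D2:**
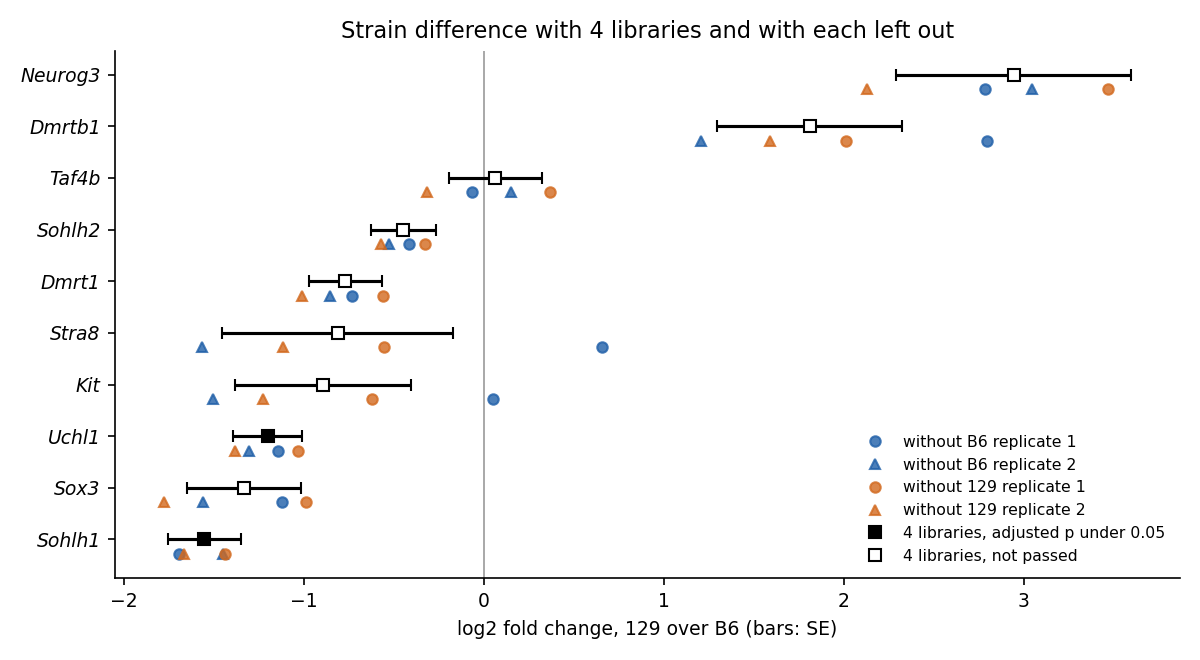
Log2 fold change (129 over B6) of each gene with 4 libraries (squares, bars are the SE, filled where the edgeR adjusted p was under 0.05) and with each library left out (circles and triangles). Sohlh1 and Uchl1 keep similar sizes throughout, whereas Kit and Stra8 cross 0 without B6 replicate 1.

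Kit and Stra8 differed more between the libraries of B6 than between the strains. Kit, the receptor of stem cell factor and the classic surface mark of differentiating spermatogonia (chromosome 5, 75574916-75656722, plus strand), was at 153 and 53.5 CPM in B6 and at 44.2 and 67.1 CPM in 129. B6 library 2 fell inside the 129 range. The log2 fold change was -0.89 (SE 0.49, edgeR adjusted p = 0.29) and became 0.051 without B6 replicate 1 and -1.50 without B6 replicate 2.

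Stra8, the retinoic acid target that opens the way to meiosis (chromosome 6, 34920163-34939344, plus strand), was at 132 and 29.0 CPM in B6 and at 37.2 and 54.9 CPM in 129. B6 thus held both the highest and the lowest of the 4 values. Its log2 fold change was -0.81 (SE 0.64, edgeR adjusted p = 0.45), 0.66 without B6 replicate 1 and -1.56 without B6 replicate 2. The strain comparison of both genes rested on which B6 library was used.

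Between the B6 libraries Kit differed 2.86-fold, Stra8 4.55-fold and Dmrtb1 2.93-fold, each higher in library 1. Over the 10262 genes averaging 10 CPM or more, 2.27% had B6 libraries at least as far apart as Kit, 0.780% as far as Stra8 and 2.23% as far as Dmrtb1. Sohlh1, Sohlh2, Dmrt1 and Uchl1 differed by at most 0.28 on the log2 scale between the same libraries. In 129 library 1, 8079 of all 16005 genes tested were lower than in library 2 and 7918 were higher (median log2 ratio -0.0048). The 10 genes were all lower in library 1, with a median of -0.50, and all 12 germ cell markers were too (median -0.37). Fibroblast markers ran opposite, higher in 129 library 1 for 9 of 10 (median 1.25). The part of the other cells in these ratios was not tested.

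Genes that act before the switch were divided between the B6 libraries. Among 20 genes of undifferentiated spermatogonia, 13 were lower and 7 higher in B6 library 1 than in library 2. Of these, 8 were at least 2-fold lower in library 1 and none was at least 2-fold higher, against 1106 and 1220 of all 16005 genes. Gfra1, the GDNF co-receptor of stem cells, was at 77.1 and 226 CPM in the B6 libraries and at 216 and 248 CPM in 129. Ret, its signalling partner, was at 147 and 361 CPM in B6 and at 529 and 644 CPM in 129. Lhx1, a transcription factor induced by GDNF, was at 7.06 and 45.4 CPM in B6 and at 83.8 and 73.0 CPM in 129. The 7 genes that were higher in library 1 were Pax7, at 4.78 and 2.52 CPM, Thy1, at 29.2 and 22.7 CPM, and Cdh1, Lin28a, Id4, Zbtb16 and Foxo1, with smaller ratios. The ratio of Kit to Gfra1 was 1.98 in B6 library 1 and 0.236, 0.204 and 0.271 in B6 library 2 and the 129 libraries. On this ratio B6 library 1 stood apart from the other 3 libraries. The ratio of Kit to Uchl1 was 0.186 and 0.0708 in B6 and 0.146 and 0.175 in 129. There B6 library 2 was the lowest, and B6 library 1 lay near 129. Each pattern rested on a single library, was noticed in these data and had no test.

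**Figure D3:**
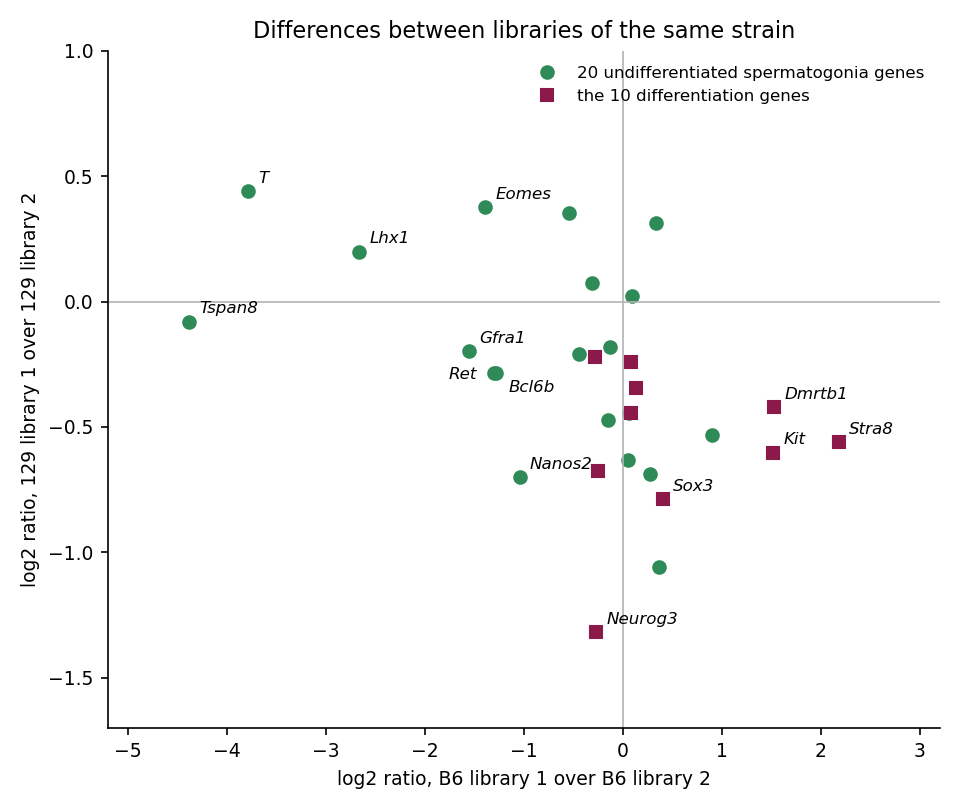
Log2 ratio of library 1 to library 2 in B6 (x axis) and in 129 (y axis) for the 10 differentiation genes (squares) and 20 genes of undifferentiated spermatogonia (circles). Kit, Stra8 and Dmrtb1 lie to the right, while Gfra1, Ret, Bcl6b, Lhx1 and Tspan8 lie to the left, and all 10 squares are below 0 on the y axis.

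Taf4b, a germ-cell-enriched TFIID subunit on chromosome 18 (14783245-14900359, plus strand), showed no strain gap. Its level was at 150.3 and 179 CPM in B6 and at 132 and 212 CPM in 129, with a log2 fold change of 0.064 (SE 0.26, edgeR adjusted p = 0.89). The 129 libraries bracketed the B6 libraries. Its ubiquitous paralog Taf4 was at 31.1 to 44.8 CPM in all 4 libraries. Of 16 TFIID subunit genes, 4 had an unadjusted p under 0.05 in edgeR, as had 4492 of all 16005 genes tested. None of the 16 passed in edgeR (median -0.19) or limma-voom, and 1, Taf9b, passed in DESeq2. The subunit genes with the highest CPM were Taf7l (483 ± 119 CPM in B6, 303 ± 79.0 CPM in 129) and Taf1 (448 ± 51.1 and 290 ± 32.4 CPM).

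Because germ cell markers were lower in 129, each gene was also set against their sum. Per 1000 CPM of the 12 markers, Dmrt1 was at 122 and 121 in B6 and 114 and 118 in 129. It was nearly level over the 4 libraries, with both B6 values still the higher. Uchl1 was at 163 and 157 in B6 and 116 and 112 in 129, and Sohlh1 at 36.7 and 46.9 in B6 and 24.8 and 21.9 in 129. Both thus kept the strains apart on this scale. Sox3 also kept them apart, at 21.1 and 16.8 against 10.5 and 13.7. Sohlh2 turned round, at 50.8 and 50.7 in B6 and 64.5 and 57.9 in 129, and Taf4b stood apart at 29.7 and 37.2 against 50.7 and 61.5. The share of all genes apart on this scale was not counted.

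In the edgeR fit scaled to these markers the median of all genes moved from 0.015 to 0.74 on the log2 scale. Taf4b, at 0.75, lay near that median, and Sohlh2, at 0.27, lay below it. Sohlh1 was then at -0.84 (edgeR adjusted p = 0.056) and Uchl1 at -0.49 (adjusted p = 0.099), and neither call held. Dmrtb1 (2.52, adjusted p = 0.032) and Neurog3 (3.61, adjusted p = 0.030) passed as higher in 129. They were among 3014 genes called higher in this fit, against 116 called lower, of 16005 tested. Calls in that direction were thus common among all genes on this scale. By construction this scale sets the sum of the 12 markers level between libraries, while single markers can still differ.

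**Figure D4:**
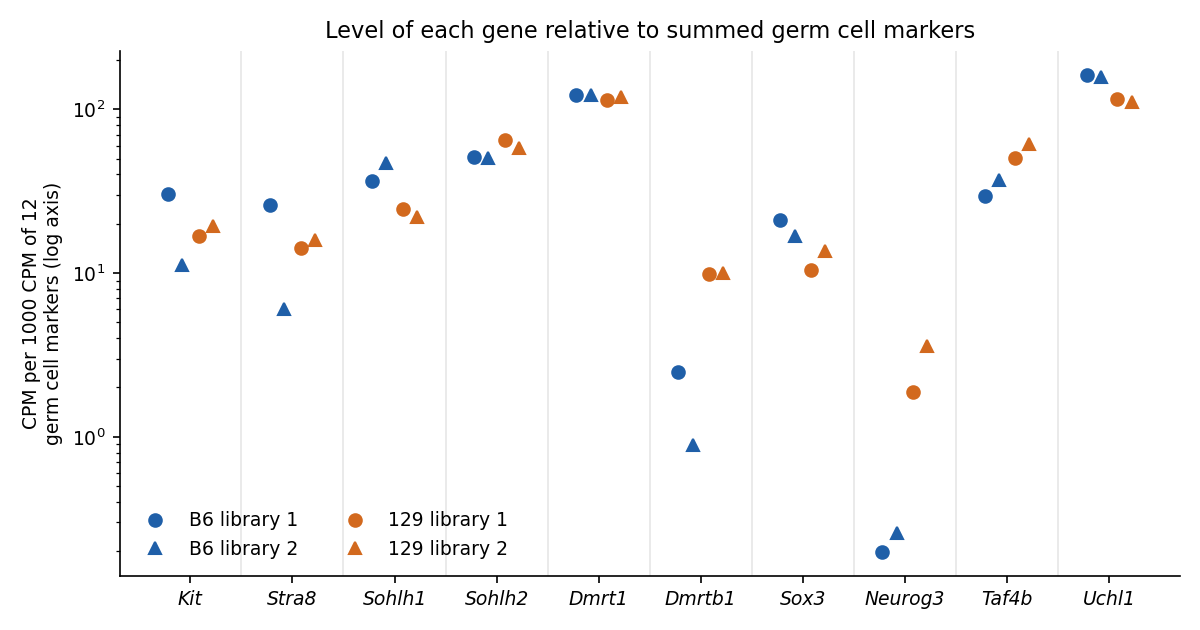
CPM of each gene per 1000 CPM of 12 summed germ cell markers (log axis), by library, colours and symbols as in the plot of CPM. Dmrt1 is nearly level at 114 to 122, Sohlh1, Uchl1 and Sox3 remain higher in B6, and Sohlh2, Taf4b, Dmrtb1 and Neurog3 are higher in 129.

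Levels of different genes were compared per kilobase of merged exons (CPM divided by length, called RPKM here). In B6 the order ran from Uchl1 (484 ± 29.9 RPKM) through Dmrt1 (232 ± 9.50), Sohlh1 (160 ± 21.8) and Sohlh2 (106 ± 4.04) to Sox3 (45.4 ± 8.92), Stra8 (44.7 ± 40.4), Taf4b (32.0 ± 3.92), Kit (11.6 ± 7.89), Dmrtb1 (4.06 ± 2.82) and Neurog3 (0.669 ± 0.0985; SD, n = 2 each). The range of Stra8 overlapped those of Sox3, Taf4b and Kit, and that of Kit overlapped that of Dmrtb1. The order within these pairs is therefore not fixed. In 129 Sohlh2 (77.8 ± 9.23 RPKM) stood above Sohlh1 (54.4 ± 5.95), without overlap, the reverse of B6. Dmrtb1 (14.4 ± 2.96) likewise stood above Kit (6.24 ± 1.82) in 129. With the longest transcript as the length, the mean over 4 libraries was 15.2 in place of 8.91 RPKM for Kit and 481 in place of 347 RPKM for Uchl1.

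Likeness of pattern was measured as the root mean square difference of centred log2 CPM over the 4 libraries, against 10261 other genes of at least 10 CPM. The gene nearest to Kit was Meioc (0.044), at 52.2 and 17.1 CPM in B6 and 14.5 and 23.2 CPM in 129, followed by the retinoic acid synthesis gene Aldh1a2 (0.076). Nearest to Stra8 were Zfp654 (0.13) and Lrrn1 (0.17), to Sohlh1 Tent5a (0.045) and Pramel1 (0.052), and to Dmrtb1 Shisal1 (0.15) and Klhl42 (0.18). Nearest to Uchl1 were Zfp60 (0.011) and the germ cell gene Fkbp6 (0.023), to Dmrt1 Rbm44 (0.0087) and Cnp (0.0093), and to Sohlh2 Pogz (0.011) and Rbbp5 (0.011). Sox3 was nearest to Magea8 (0.040) and Gramd2 (0.059), and Taf4b to Dzank1 (0.021) and Slc17a7 (0.043). Among the 10 genes themselves, Sohlh2 and Dmrt1 were closest (0.18), then Uchl1 and Sox3 (0.20), and Kit and Stra8 were 0.27 apart. Neurog3, under 10 CPM on average, was left out. Over 4 libraries such a likeness is a description only.

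Around the 10 genes, few genes of the wider pathways passed in edgeR, and DESeq2 called more. Of 15 other genes of differentiating spermatogonia 1 was called, Crabp1, a retinoic acid-binding protein gene, lower in 129 (128 and 113 CPM in B6, 22.1 and 33.5 CPM in 129, edgeR adjusted p = 0.030), and the median was -0.22. DESeq2 called 6 of the 15, Ccnd2 higher and Crabp1, Dnmt3b, Lhx8, Magea5 and Upp1 lower. The edgeR call of Crabp1 ended without B6 replicate 1, without B6 replicate 2 and without 129 replicate 1 (adjusted p = 0.15, 0.093 and 0.13). Crabp1 was also the single edgeR call among 18 tested genes of the retinoic acid pathway (20 listed, median 0.30), where DESeq2 called 2 higher and 1 lower. Meiosin (Bhmg1, listed as Gm4969), the partner of STRA8, was at 14.7 and 8.01 CPM in B6 and 4.15 and 7.06 CPM in 129, and Rec8, another retinoic acid target, at 34.5 and 17.3 against 23.3 and 27.3 CPM.

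Of 17 genes of KIT signalling 7 had an unadjusted p under 0.05 in edgeR, as had 4492 of all 16005 genes tested. None of the 17 passed in edgeR or limma-voom (median 0.089), and DESeq2 called 4 higher and 2 lower. The pair with the highest CPM was Mtor (B6 397 ± 9.32 CPM, 129 303 ± 41.8 CPM) and Ptpn11 (B6 172 ± 10.7 CPM, 129 204 ± 26.5 CPM; SD, n = 2 each). The ligand gene Kitl, chosen after its values were seen, had 13.5 and 7.91 CPM in B6 and 113 and 29.3 CPM in 129. Its log2 fold change was 2.72 (SE 0.66, edgeR adjusted p = 0.067), and DESeq2 called it higher. Of the 20 genes of undifferentiated spermatogonia 3 were called in edgeR, all higher in 129, namely Etv5, Pax7 and Cd9, and the median was -0.18. DESeq2 called 4 higher, the same 3 and Ret, and 4 lower, Foxo1, Id4, Nanos2 and Thy1, while limma-voom called Cd9 and Etv5 alone. Pax7 also missed the threshold without a filter (edgeR adjusted p = 0.057) and with the stricter one (0.05006), and Cd9 without a filter (0.052). With 1 library left out, the calls of Pax7 and Cd9 ended in all 4 cases and that of Etv5 in all but the fit without 129 replicate 2 (edgeR adjusted p = 0.043). Of 16 tested paralogs (21 listed, median 0.034) 1 was called, Pdgfra, a receptor kinase related to Kit and a fibroblast marker, higher in 129 (42.6 and 38.7 CPM in B6, 196 and 103 CPM in 129). That call was absent in limma-voom (adjusted p = 0.065) and held in edgeR with 1 library left out only without 129 replicate 2 (adjusted p = 0.015).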

How the data were processed

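Total RNA from GS cells (2 libraries of B6, 2 of 129) was read as single reads of 76 bp from stranded mRNA libraries, per the labels' protocols. The authors deposited raw counts per gene. The submitters' processing notes name the build mm10 and, in no given order, HTSeq 0.13.5, HISAT2 2.2.1, DESeq2 1.30.1, cutadapt 3.4 and bcl2fastq 2.20. The counter's strand option and the annotation release stand in none of the sources used here. Any loss of 129 reads at variants against the mm10 reference was not tested. B6 libraries summed to 25374801 and 20488618 counts, and those of 129 to 20798809 and 20375086.

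From these counts, edgeR 4.0.16 (R 4.3.3; filterByExpr, TMM, robust quasi-likelihood test, strain as the only term) was fitted over all genes, with Benjamini-Hochberg adjustment and a threshold of 0.05. CPM use TMM-scaled library sizes, and SE was taken from the fold change and F, as the size of the first over the root of the second. Positions and exon lengths came from GENCODE M21 (GRCm38), which held 99.61% of gene identifiers. Log2 ratios of libraries and likeness used CPM plus 0.1. The alternatives used DESeq2 1.42.0, limma 3.58.1, other scalings and filters, a replicate block and each library left out. The fits were also run on simulated counts with independent libraries and changes larger than those of Sohlh1 and Uchl1. That run therefore does not bear on changes of their size. The genes and lists were chosen with earlier results of these data known. Named list genes are all those called in edgeR or, outside the marker lists, the 2 most abundant where none was. Other list genes given with values were chosen after these were seen. Depth limits low genes: a count of 0 allows up to 3 counts, and such limits cover counting error only.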

Additional observations from a re-analysis of the deposited data

How the results depend on the processing

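In edgeR the fit of all 4 libraries called 294 genes higher and 163 lower in 129, and 0 of the 10 genes higher and 2 lower. The counts higher and lower were 697 and 324 with upper-quartile factors, 748 and 307 with library totals, 3014 and 116 with the germ cell marker scale, 165 and 95 without a filter, 194 and 117 with the stricter filter, 1598 and 896 in DESeq2 and 163 and 100 in limma-voom. Leaving out 1 library gave 0 to 750 higher and 0 to 77 lower, and 0 to 3 of the 10 genes lower. Of the 10 genes, 1 was called higher with upper-quartile factors, library totals or the replicate block (Neurog3 each time), 2 in DESeq2, and 2 higher with 0 lower on the germ cell marker scale. Neurog3 was not tested under the stricter filter. The replicate block gave 623 genes higher and 221 lower. Libraries with the same number deviated with a correlation of -0.014. That value rests on a single pairing, so it cannot show whether they shared more than a number. With 1 library left out, the log2 fold change ran from -1.50 to 0.051 for Kit, from -1.56 to 0.66 for Stra8 and from -0.31 to 0.37 for Taf4b. Kit and Stra8 turned positive without B6 replicate 1, and Taf4b turned negative without B6 replicate 1 (-0.063) or 129 replicate 2. On the germ cell marker scale Sohlh2 went to 0.27, Mtor to 0.32, Taf1 to 0.088 and Taf7l to 0.027. The cause of these differences was not tested. With fewer libraries the lone library is assumed to vary like the others. Neurog3, at 25 counts in each B6 library, had the widest SE of the 10 genes (0.65).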
